A study of Mus musculus with 4 samples.

Results

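Transcription initiation was examined at 9 mouse genes that mark megakaryocytes and platelets: Gp1ba, Gp9, Vwf, Itga2b, Itgb3, Gp6, Treml1, Pf4 and Ppbp. They were chosen by name from knowledge of the lineage, with earlier results of these data known. All 9 were found in the annotation, among 21951 annotated protein-coding genes. The data are 4 PRO-seq libraries from E14.5 mouse embryos, 2 of liver and 2 of yolk sac, each made from tissue pooled from 6 embryos. PRO-seq (precision nuclear run-on sequencing) captures the nascent RNA of polymerases engaged on chromatin. All 4 libraries come from the same cross: C57BL/6J mothers were mated to fathers of mixed C57BL/6J and CAST/EiJ background, selected to carry CAST/EiJ alleles at the Dlk1/Gtl2 locus. The labels name no treatment or engineered mutation, and the groups differ by tissue. The run-on was made on isolated chromatin in every library. Each library was deposited as a list of peaks with a score, and the file names carry the word dREG, a classifier that finds transcription start regions (promoters and enhancers) from run-on reads.

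Megakaryocytes are large cells that arise from blood progenitors they share with the erythroid lineage, and they shed platelets into the circulation. In the mouse embryo the yolk sac produces the earliest megakaryocytes, and the fetal liver is the main site of blood formation at mid-gestation. The GATA1, GFI1B, FLI1 and RUNX1 transcription factors control much of the platelet gene set, and platelets use its surface receptors to adhere to von Willebrand factor, collagen and fibrinogen at a wound.

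The promoters of 4 of the genes are shown because calls at or beside them are described below. Pf4 had its promoter peaks mainly in yolk sac, and Gp1ba and Treml1 in liver only. Itga2b was called in all 4 libraries at internal starts, which lie outside the window shown. Each line gives the 250 bases upstream of the RefSeq start on GRCm38.p6, written 5′ to 3′ on the strand of the gene. Capitals mark GATAA, the core recognised by GATA factors, and GGAAG, a core recognised by ETS factors such as FLI1, on either strand (TTATC and CTTCC on the other). The windows are chr5:90772185-90772434 (plus strand) for Pf4, chr11:70638872-70639121 (plus) for Gp1ba, chr11:102469884-102470133 (minus) for Itga2b and chr17:48359666-48359915 (plus) for Treml1.
Pf4: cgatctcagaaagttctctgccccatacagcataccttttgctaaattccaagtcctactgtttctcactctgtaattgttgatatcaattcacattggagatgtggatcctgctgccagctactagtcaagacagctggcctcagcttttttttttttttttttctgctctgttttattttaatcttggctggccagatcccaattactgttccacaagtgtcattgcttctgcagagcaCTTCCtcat
Gp1ba: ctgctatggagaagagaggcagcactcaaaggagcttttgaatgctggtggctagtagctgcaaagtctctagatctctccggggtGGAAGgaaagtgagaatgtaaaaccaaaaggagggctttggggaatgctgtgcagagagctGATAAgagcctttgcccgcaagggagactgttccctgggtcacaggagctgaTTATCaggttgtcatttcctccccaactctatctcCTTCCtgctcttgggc
Itga2b: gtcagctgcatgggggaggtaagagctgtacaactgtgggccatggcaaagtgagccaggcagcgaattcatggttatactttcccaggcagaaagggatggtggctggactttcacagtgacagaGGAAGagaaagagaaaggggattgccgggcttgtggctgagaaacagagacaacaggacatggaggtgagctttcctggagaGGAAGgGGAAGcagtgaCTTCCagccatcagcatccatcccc
Treml1: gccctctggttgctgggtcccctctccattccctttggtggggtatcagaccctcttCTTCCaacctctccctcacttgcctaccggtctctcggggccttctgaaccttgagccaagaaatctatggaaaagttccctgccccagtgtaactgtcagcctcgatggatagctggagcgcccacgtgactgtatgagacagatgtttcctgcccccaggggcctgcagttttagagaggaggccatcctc

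The table of RefSeq promoters held 7 of the 9 genes, all but Itgb3 and Vwf. GATAA was present on either strand in 3 of the 7 windows (Gp1ba, Gp9 and Gp6) and in 22.6% of all 32851 promoter windows of the same length. Gp1ba held 2 copies, visible in the line above, 1 on each strand. GGAAG was in 6 of the 7 and in 64.1% of all windows, with Gp6 the exception. TGTGGT, a core for RUNX factors, was in Gp9 alone (14% of all windows). TATAAA was in Ppbp alone (12.4%), and TGAGTCA, an element bound by NF-E2 and AP-1 factors, was in none (4.46%). The 7 promoters held between 1 and 5 CpG dinucleotides, with a median of 2 against 6 over all windows, while their median GC content of 51.2% was near the 52.4% of all windows. These matches describe letters in the windows and are not evidence of binding.

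The liver lists held 24863 and 24333 peaks and the yolk sac lists 50525 and 43055. How many reads lie behind a list is not known, and every list stops at a score of 0.80, so a gene without a peak may still be transcribed. Scores were ranked within each list, and a percentile is the share of that list's peaks with a score at or below the peak's. Since the lists differ in length, percentiles of different libraries are given side by side without a comparison. Genes of hepatocytes and of yolk sac endoderm were checked. All 4 hepatocyte genes (Alb, Ttr, Apoa2 and Cps1) had promoter peaks in both liver libraries. All 4 genes of yolk sac endoderm (Amn, Cubn, Lrp2 and Dab2) had them in both yolk sac libraries. Only Cps1, Amn and Cubn were called in both libraries of 1 tissue and in neither of the other. The hepatocyte genes also had peaks at 3 of 4 in each yolk sac library, Cps1 being the exception. The endoderm genes had peaks at 2 and 1 of 4 in the liver libraries (Dab2 in both, Lrp2 in replicate 1).

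More of the 9 genes had a promoter peak in liver than in yolk sac. A promoter peak is a peak within 500 bp of any annotated start of the gene, and it was found at 6 and 5 genes in the liver libraries and at 3 and 3 in the yolk sac libraries. Over all protein-coding genes the order was the other way, with 56.1% and 57.9% called in the liver libraries and 63.8% and 62.4% in the yolk sac libraries. The means were 5.5 ± 0.707 and 3 ± 0 (SD, n = 2), a difference of -2.5 genes that exceeded the difference between replicates of either tissue. With 2 libraries against 2, the exact two-sided permutation test cannot give a p below 0.33, and it gave that value here. In the tissue as a whole, fewer cells of a type and less transcription per cell cannot be told apart.

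By pattern, Gp1ba, Treml1 and Vwf (3 of 9 genes) had peaks in the 2 liver libraries alone, a pattern shared by 1.01% of all protein-coding genes. None of the 9 had the reverse pattern, which 5.25% of all genes had. Itga2b and Itgb3 (2 of 9) were called in all 4 libraries, as were 53.8% of all genes. Gp9, Gp6 and Ppbp (3 of 9) were called in none, as were 34.2% of all genes. Pf4 lacked a peak only in liver replicate 2. When every list was shortened to the 24333 highest-scoring peaks, the length of the shortest list, the same 3 genes stayed liver-only, against 3.01% of all genes. When only the higher-scoring 50% of each list was kept, the direction of the difference turned, to 0.5 genes more in yolk sac (2 and 3 genes in liver, 3 and 3 in yolk sac). At this setting the yolk sac lists stayed longer than the liver lists, and the share over all genes is not given. Gp1ba and Treml1 then had no call in any library, and Pf4 and Itgb3 lost theirs in liver replicate 1. Erythroid markers were called more in the liver libraries. Endothelial and macrophage markers were called more in the yolk sac libraries, as were all protein-coding genes. The counts of these markers are given with the other gene lists, and the part of these cell types in the calls was not tested.

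**Figure D1:**
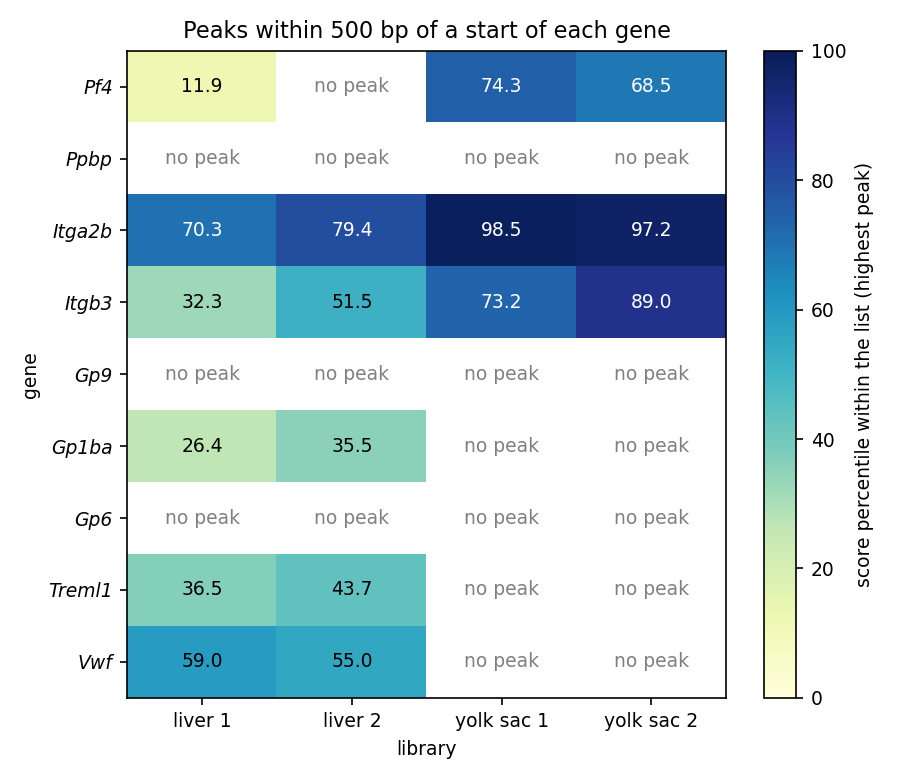
Rows are the 9 genes, columns the 4 libraries, and each cell gives the within-list score percentile of the highest-scoring peak within 500 bp of a start of the gene. Gp1ba, Treml1 and Vwf have cells in the liver columns only, Itga2b and Itgb3 in all columns, and Gp9, Gp6 and Ppbp in none.

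Gp1ba and Gp9 encode glycoproteins of the platelet complex that binds von Willebrand factor. At Gp1ba (chromosome 11, 70639122 to 70642036, plus strand), a peak spanned the start in liver replicate 1 (70638751 to 70639652, 902 bp) and in liver replicate 2 (70638751 to 70639452, 702 bp). These ranked at percentiles 26.4 and 35.5 of their lists. Both cover the whole promoter window printed above, with its 2 GATAA matches. A further liver-only region lay in an exon near the 3′ end of the gene, at 70641351 to 70642002, with low percentiles of 5.62 and 16.2. Neither yolk sac list had a peak in Gp1ba. An upstream region at 70630201 to 70630702, was called in all 4 libraries, and the region at 70621801 to 70622502, farther upstream, in yolk sac only. The widest peaks of the interval lay at the starts of neighbouring genes, Slc25a11 with Rnf167 and Pfn1 with Gm12319, and were present in all 4 libraries.

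Gp9 (chromosome 6, 87778072 to 87779768, plus strand) had no promoter peak in any library, although its surroundings differed by tissue. A peak upstream of the gene, overlapping the start of the noncoding transcript Gm43904, reached from 87775501 to 87777152 in liver replicate 1 and from 87775551 to 87776902 in liver replicate 2. It ended 920 bp and 1170 bp before the Gp9 start. In liver replicate 1 it had rank 2 from the top among the 24863 peaks, and in liver replicate 2 it ranked 86 from the top. Neither yolk sac list had a peak there. With a promoter window of 1000 bp, Gp9 was therefore called in liver replicate 1 and in no other library.

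Around Gp9 the liver libraries had 4 and 5 peaks within 20 kb of the gene and the yolk sac libraries 1 and 1. The regions at 87763051 to 87764052, at 87790501 to 87791752 (at an internal start of Rab43) and at 87796401 to 87796802 were also liver-only. The yolk sac peak lay elsewhere, at 87759501 to 87760302, and no liver peak overlapped it. Gm43904 and Gp9 are annotated on the same strand, and the peaks do not show which transcript the initiation belongs to.

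Vwf (chromosome 6, 125546774 to 125686679, plus strand) encodes von Willebrand factor, made by megakaryocytes and by endothelial cells, and is the longest of the 9 genes. No library had a peak at its first annotated start. In liver, a peak lay at the neighbouring coding starts 125552948 and 125552963. It reached from 125552951 to 125553452 in replicate 1, covering only the second of these starts, and from 125552751 to 125553152 in replicate 2, at percentiles 27.3 and 17.3. Yolk sac had no peak at these starts. The higher-ranking promoter call in liver came from the start of a noncoding transcript at 125566251, reached by a peak from 125564501 to 125566302 in replicate 1 and ending 49 bp short of it in replicate 2. The yolk sac lists also had a peak in this region, but it ended 749 bp before that start in replicate 1 and 1049 bp before it in replicate 2, outside the window of 500 bp. The liver-only call at this internal start thus reflects where the peak edges fell, and a window of 1000 bp added yolk sac replicate 1 but not replicate 2. The calls at 125552948 and 125552963 did not have this limit, but they were of low rank, and the call of Vwf in the higher-scoring 50% rested on the internal start.

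Inside the Vwf gene the tissues had different sets of intronic peaks. A liver-only region at 125560751 to 125561752 (percentiles 86.6 and 61.8) lay beside a yolk-sac-only region at 125559101 to 125560102 (percentiles 78.7 and 64.8), and no peak of either tissue overlapped one of the other there. A second liver-only region lay at 125568301 to 125568752. The region at 125572301 to 125575452 was called in all 4 libraries, as a single peak except in yolk sac replicate 2, where it was split into 2 peaks. Farther into the gene, regions at 125590301 to 125593252 and at 125596451 to 125597752 were yolk-sac-only. The midpoint of the latter was intronic, and it ranked at percentiles 95.8 and 89.1. No library had a peak in the remaining 3′ part of the gene. In total, Vwf with its 20 kb flanks held 5 peaks in each liver library, against 8 and 7 in the yolk sac libraries.

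**Figure D2:**
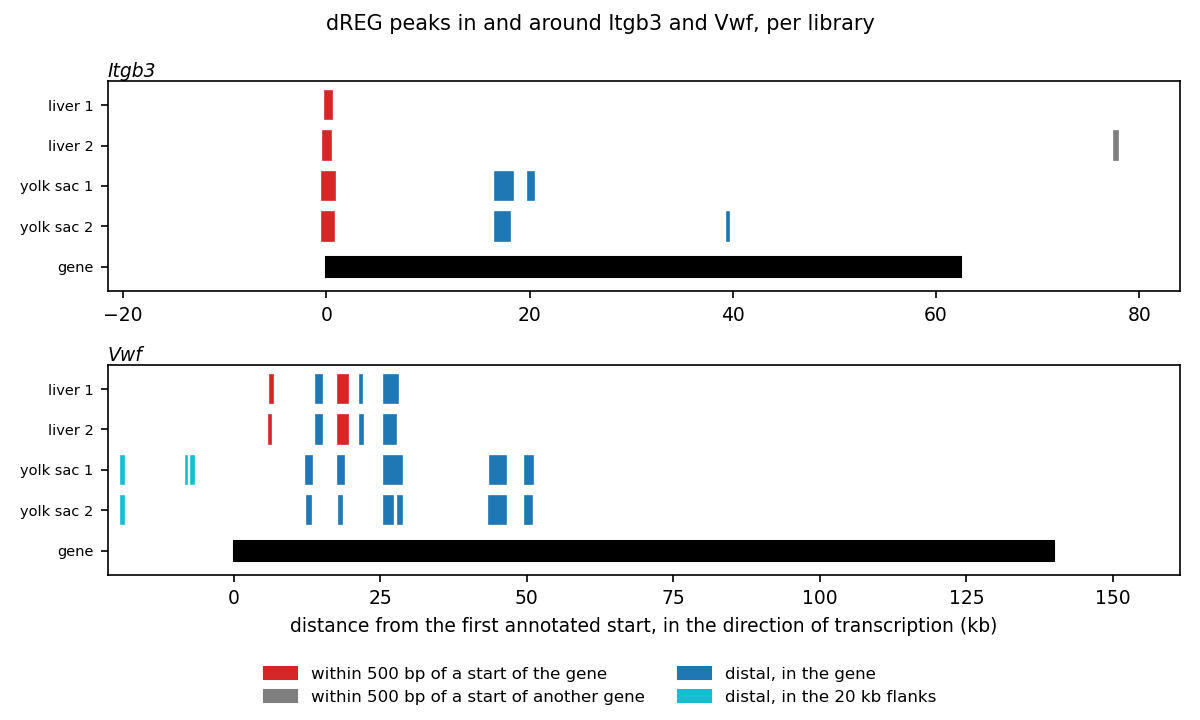
Boxes are the deposited peaks of each library along Itgb3 and Vwf, by distance in kb from the first annotated start, with the gene as a black bar and colours for the position relative to annotated starts. Itgb3 has a peak at its start in all 4 libraries and intronic peaks in yolk sac only, while the Vwf peaks of the tissues interleave within the first part of the gene.

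Itga2b and Itgb3 encode the subunits of the integrin that is the platelet receptor for fibrinogen, and both were called in all 4 libraries. At Itgb3 (chromosome 11, 104608000 to 104670476, plus strand) the peak lay across the coding start in each library. Its width was 652 and 752 bp in liver and 1252 and 1202 bp in yolk sac, and its percentiles were 32.3, 51.5, 73.2 and 89.0 in the same order. The yolk sac widths were above the liver widths without overlap. The top peak of Itga2b also was wider in both yolk sac libraries, although it was not the same peak in each, and this held for 34.5% of all genes called in all 4 libraries. A strong intronic region at 104624601 to 104626352 was yolk-sac-only, at percentiles 85.5 and 91.3. The other intronic peaks, at 104627851 to 104628402 and at 104647401 to 104647652, were each called in 1 yolk sac library. Integrin beta 3 also pairs with another alpha subunit in cells outside the platelet lineage, so its promoter does not mark megakaryocytes alone.

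At Itga2b (chromosome 11, 102453297 to 102470122, minus strand) the calls came mostly from starts inside the gene. The region at 102465801 to 102467902, at the starts of noncoding transcripts, was called in all 4 libraries, with liver percentiles of 70.3 and 79.4 and yolk sac percentiles of 98.5 and 75.8. The region at 102455351 to 102456552, near the 3′ end, was also called in all 4, with liver percentiles of 59.7 and 75.5 and yolk sac percentiles of 57.2 and 97.2. The coding start at 102469883, whose promoter is printed above, had a peak in liver replicate 1 (1052 bp wide, percentile 37.1) and in yolk sac replicate 1 (152 bp wide, percentile 15.2), and in neither replicate 2. With coding starts only, Itga2b was therefore called in 1 library of each tissue. The other peaks near the gene lay at the start of its neighbour Fam171a2, in all 4 libraries, and in the far flank in yolk sac replicate 1.

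Treml1 encodes a receptor stored in platelet granules, and Gp6 encodes the platelet collagen receptor. At Treml1 (chromosome 17, 48359916 to 48367176, plus strand) a peak began 132 bp downstream of the nearest start in liver replicate 1 (48360051 to 48360902) and 232 bp downstream in liver replicate 2 (48360151 to 48360952). Their percentiles were 36.5 and 43.7. The peaks therefore do not cover the window printed above, and the call was lost when the peak midpoint had to lie within 500 bp of a start. The yolk sac lists had no peak in Treml1, and the only yolk sac peak within 20 kb, 102 bp wide and near the bottom of its list at percentile 1.88, lay at the start of its neighbour Trem2. Gp6 (chromosome 7, 4363965 to 4397744, minus strand) had no peak in the gene or within 20 kb in any of the 4 libraries. It was the 1 gene of the 9 for which this was so.

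Pf4 and Ppbp encode chemokines released from platelet alpha granules, and they lie next to each other on chromosome 5, so that their flanks hold the same peaks. At Pf4 (90772435 to 90773383, plus strand) the yolk sac peaks covered the start and most of the gene, from 90771351 to 90773202 (1852 bp) in replicate 1 and from 90771401 to 90773052 (1652 bp) in replicate 2. They cover the whole window printed above and ranked at percentiles 74.3 and 68.5. Liver replicate 1 had a peak of 352 bp that ended 233 bp before the start, at percentile 11.9, and liver replicate 2 had none. In the higher-scoring 50% of each list Pf4 was called in yolk sac alone. It was the 1 gene of the 9 called in more yolk sac than liver libraries.

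Ppbp (90768518 to 90770063, plus strand) had no promoter peak in any library, although its window was the only one of the 7 with TATAAA. A yolk-sac-only region at 90765701 to 90766352, upstream of both genes, ranked at percentiles 81.5 and 23.3. Yolk sac replicate 1 had 5 more peaks in the shared interval, 1 of them at the start of the chemokine gene Cxcl5, and all 5 were at or below percentile 15.1. In the liver libraries the interval held 1 and 0 peaks, and in the yolk sac libraries 7 and 2.

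**Figure D3:**
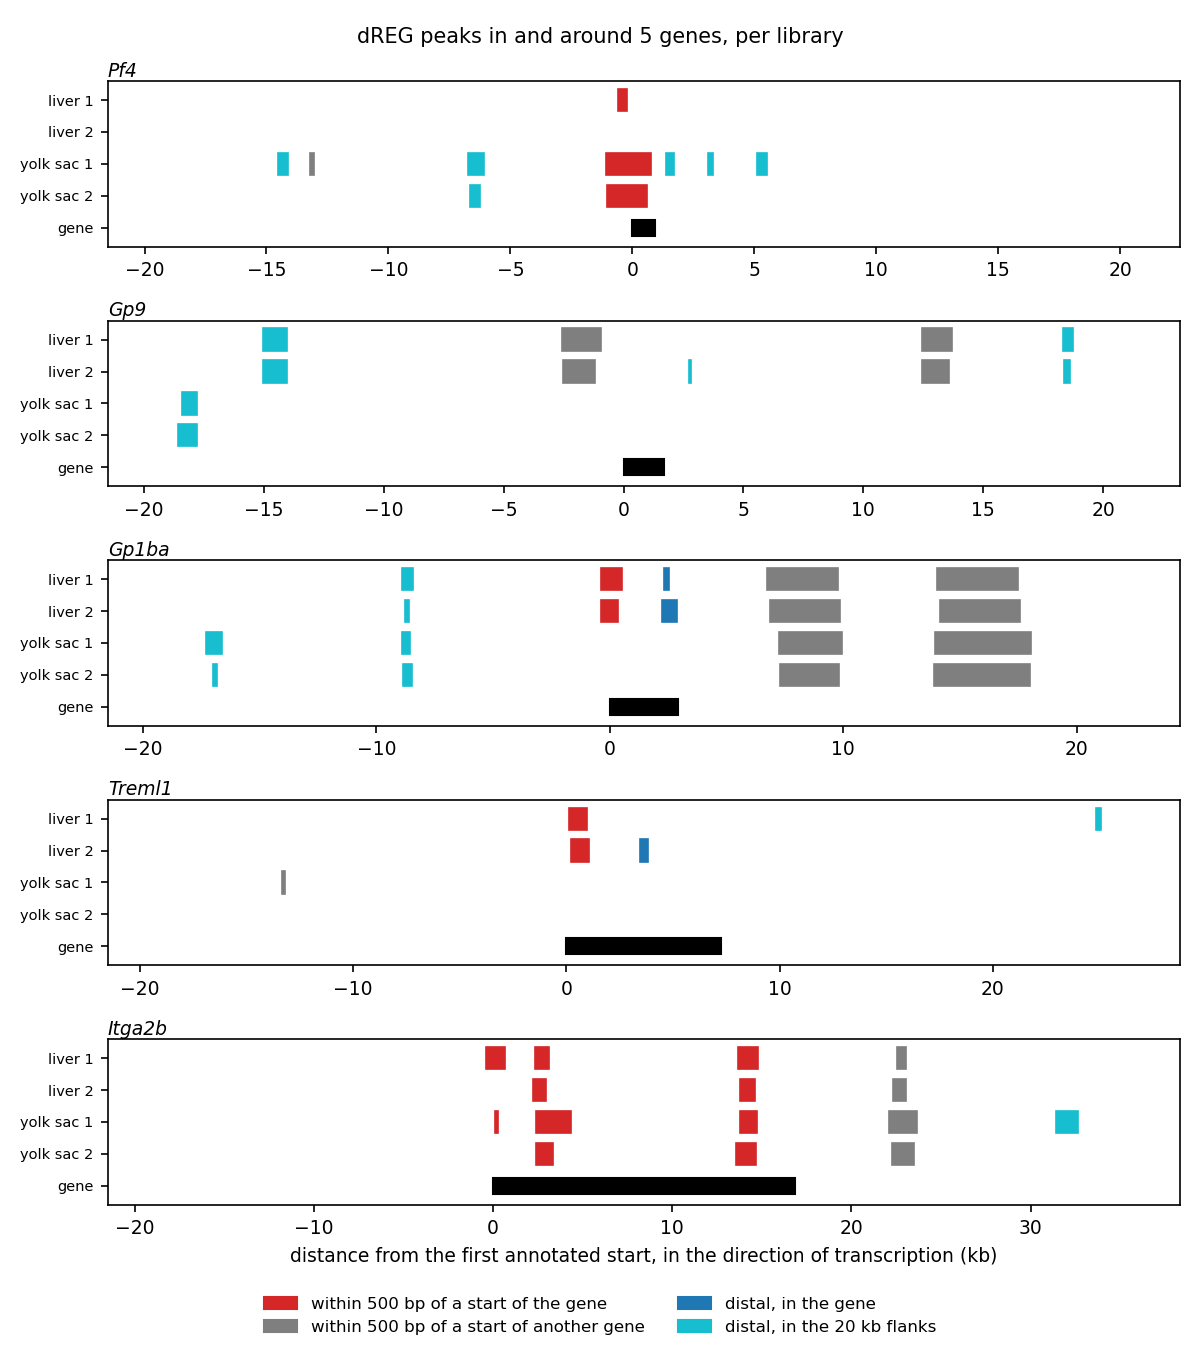
Boxes are the deposited peaks of each library around Pf4, Gp9, Gp1ba, Treml1 and Itga2b, by distance in kb from the first annotated start in the direction of transcription; the black bar is the gene. Red boxes are within 500 bp of a start of the gene, grey ones at another gene's start and blue and cyan ones distal, in the gene and in its flanks; Gp1ba and Treml1 have red boxes in the liver rows only.

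Over the 9 genes and their 20 kb flanks together, each liver library held 22 peaks, and the yolk sac libraries held 29 and 20. The means were 22 ± 0 and 24.5 ± 6.36 (SD, n = 2), and the values of the tissues overlapped (exact permutation p = 1). Without yolk sac replicate 1 the difference turned from 2.5 to -2 peaks, and with lists of equal length to -7. By gene, both yolk sac counts were above both liver counts at 4 of the 9 (Pf4, Ppbp, Itgb3 and Vwf, of which Pf4 and Ppbp share their peaks), against 36.5% of all protein-coding genes. Both liver counts were higher at 3 of the 9 (Gp9, Gp1ba and Treml1), against 5.91%. The tissues overlapped or tied at Itga2b and Gp6.

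Distal peaks, more than 500 bp from any start of any gene, numbered 8 and 9 in the liver libraries, against 19 and 13 in the yolk sac libraries. The whole lists had the same direction, with distal totals of 11725 and 10750 for liver against 33596 and 26992 for yolk sac. The means were 8.5 ± 0.707 and 16 ± 4.24 (SD, n = 2), without overlap (exact permutation p = 0.33, the smallest possible). In lists cut to 24333 peaks, the liver counts stayed at 8 and 9 while both yolk sac counts were 8, which turned the difference to -0.5. This cut removed far more peaks from the yolk sac lists than from the liver lists, and the distal totals of the cut lists are not given. Without yolk sac replicate 1, in the full lists, the difference was 4.5 peaks. After overlapping peaks of the 4 lists were joined into regions, 27 distal regions lay in or near the 9 genes. Of these, 5 (18.5%) were liver-only, against 8.01% of all 42751 distal regions, and 8 (29.6%) were yolk-sac-only, against 40.3%. Of the 17 regions near a start, 5 (29.4%) were liver-only, against 3.4% of all such regions, and none was yolk-sac-only. The yolk-sac-only share of all such regions is not given. Among the 5, the regions near Gp9 lay at starts of Gm43904 and Rab43 and not at a start of the 9 genes.

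The promoter calls were then set beside 44 other genes of megakaryocytes and platelets in 4 lists. They had promoter peaks at 32 and 36 genes in liver and at 32 and 31 in yolk sac, with means of 34 ± 2.83 and 31.5 ± 0.707 (SD, n = 2). The tissues overlapped (exact permutation p = 0.667). The difference turned to 7 genes more in yolk sac when the lower-scoring 50% of each list was dropped, with the yolk sac lists still longer. In lists of equal length it was -5, with 31 and 36 genes in liver against 28 and 29 in yolk sac. At that length the liver-only share of all protein-coding genes rose from 1.01% to 3.01%. The share of all genes called in each library is not given there. Without liver replicate 2, in the full lists, the difference was -0.5. Of the 44, 25 were called in all 4 libraries, 7 in liver only, 3 in yolk sac only, 4 in none and 5 in another pattern. Among all genes, 53.8% were called in all 4, 1.01% in liver only, 5.25% in yolk sac only and 34.2% in none. The liver-only genes included F2rl2, F5, Mmrn1, Tubb1, Gata1 and Gfi1b.

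Among 16 surface receptors, 2 were liver-only and 3 yolk-sac-only. F2rl2, a thrombin receptor, was called in liver at percentiles 17.04 and 27.3. P2ry12 (an ADP receptor), F2rl3 (a thrombin receptor) and Tbxa2r (the thromboxane receptor) were yolk-sac-only, with a lowest percentile of 42.8 at F2rl3. Gp1bb and Gp5, partners of Gp1ba and Gp9 in their complex, were called in no library, as were Selp and Cd226. Among 8 granule and secreted proteins, F5 (coagulation factor V, also made by hepatocytes) at percentiles 93.8 and 83.2 and Mmrn1 at 20.2 and 16.9 were liver-only, and none was yolk-sac-only.

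Of 10 genes of the cytoskeleton and signalling, 9 were called in all 4 libraries, and Tubb1, the beta-tubulin of platelets, was liver-only at percentiles 50.8 and 80.01. Of 10 transcription factors, 6 were called in all 4 libraries (Nfe2, Runx1, Tal1, Zfpm1, Mef2c and Meis1). Gata1 (percentiles 42.7 and 48.7) and Gfi1b (71.05 and 57.8), which act in erythroid cells as well as in megakaryocytes, were liver-only. Fli1 and Gata2 lacked a peak only in liver replicate 1.

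Markers of other blood and vessel cells gave these values. Erythroid markers were called at 10 of 10 in both liver libraries and at 3 of 10 in both yolk sac libraries, and 7 (Klf1, Alas2, Slc4a1, Hbb-bt, Hba-a1, Ermap and Epb42) were liver-only. Reads at Hba-a1 cannot be told from those of its near-identical copy. Endothelial markers were called at 8 and 10 of 12 in liver and at 12 and 12 in yolk sac, with Emcn yolk-sac-only. Macrophage markers were called at 6 and 5 of 10 in liver and at 10 and 9 in yolk sac, with Adgre1, C1qa and Cd163 yolk-sac-only.

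By exact pattern over the 4 libraries, 14 of the 76 listed genes matched Gp1ba, Treml1 and Vwf, against 1.01% of all protein-coding genes. They were 7 of the 44 genes of the platelet lists and 7 of the 10 erythroid markers. The pattern of Pf4 was matched by 2 of the 76, the endothelial gene Erg and the macrophage gene Lyz2. A pattern lacking a peak only in liver replicate 1 was held by F13a1, Gata2 and Fli1 of the platelet lists. The endothelial markers Tek, Robo4 and Egfl7 had it too. Over all 21951 protein-coding genes, 1257 had a pattern other than all 4, liver-only, yolk-sac-only or none. The share with the exact pattern of Pf4 is not given, and which cells gave the Pf4 peaks was not tested. Peaks at Erg and Lyz2 ranked at 13.4 and 21.8 in liver replicate 1, and at 68.4 and 77.4 in yolk sac replicate 1.

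**Figure D4:**
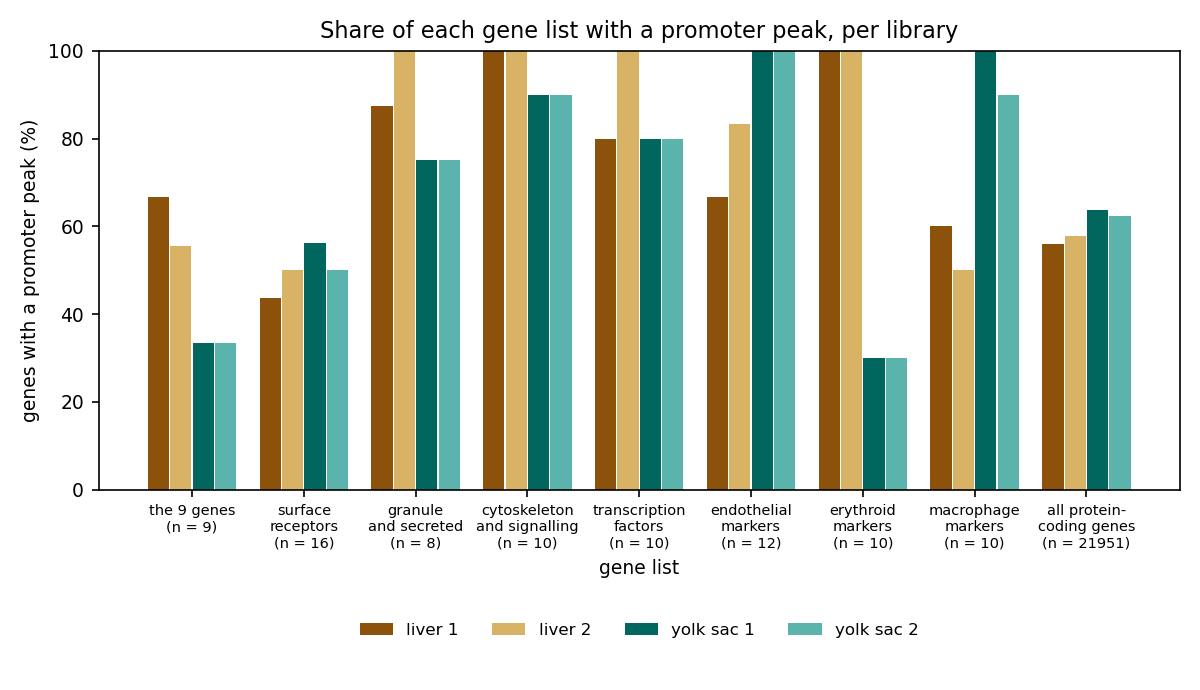
Bars give the percentage of genes in each list with a peak within 500 bp of a start, 1 bar per library, with the number of genes under each list. The 9 genes fall from 66.7% and 55.6% in the liver libraries to 33.3% in each yolk sac library, and erythroid markers from 10 of 10 genes to 3 of 10.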

How the data were processed

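The 4 libraries were deposited as BED lists of peaks, 1 per library and not pooled over replicates. Scores are as the authors deposited them, without a unit or scaling between libraries. Bowtie2, bedtools and the build mm10 are named in the submitters' processing notes, without roles or versions; filters are not given in the sources used here. Positions are 1-based on GRCm38, with genes from GENCODE M21.

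With Python 3.11.15, numpy 2.4.6 and pandas 2.3.3, peaks were given to a promoter on overlap with 500 bp either side of any annotated start, and to a gene's surroundings on overlap with the gene or 20 kb on either side. Peaks of the 4 lists sharing at least 1 bp were joined into regions. The functions were tested on simulated lists. Tissues were compared with exact permutation tests over the 6 assignments of libraries. The labels give 6 pooled embryos for each library, and the spread is between libraries. Alternatives were other windows, flanks, start sets, midpoint assignment, the higher-scoring 50% of each list, lists of equal length, omission of single libraries and a replicate block. Promoter sequences come from the RefSeq table of GRCm38.p6 (7 of 9 genes), and bases after the start were checked against GENCODE transcripts.

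The 9 genes, the gene lists and the tests were chosen with earlier results of these data known, and the 8 genes of the tissue check after them. Named genes were the 9, neighbours with a start at a peak, and listed genes called in 1 tissue only or with the pattern of a gene of the 9 that was called in at least 1 library and not in all 4. Fli1, Gata2, F13a1, Tek, Robo4, Egfl7 and the listed genes named as called in every library or in none fall outside this rule. They were chosen after their values were seen. The values of 1 listed gene are not reported here; it stays in the counts. Genes sharing flanks, overlapping starts or near-identical copies cannot be separated from peaks alone.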

Additional observations from a re-analysis of the deposited data

How the results depend on the processing

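With so few libraries no tissue difference can reach significance. Values are given where they moved by more than the SD between replicates, with some smaller moves, such as those on leaving out a library. The higher-scoring 50% of each list left the yolk sac lists longer than the liver lists. Equal list lengths removed far more peaks from the yolk sac lists than from the liver lists. The difference in genes with a promoter peak (-2.5) turned to 0.5 in the higher-scoring 50% of each list and was -1.5 when the peak midpoint had to lie in the window. With equal list lengths, windows of 250 or 1000 bp and coding starts only it was again -2.5. Leaving out each library gave -3 to -2. The difference in peaks over the genes and flanks (2.5) was 9 with flanks of 50 kb, turned to -7 with equal list lengths, and ranged from -2 (without yolk sac replicate 1) to 7 when a library was left out. The difference in distal peaks (7.5) was 3 within gene bodies alone and turned to -0.5 with equal list lengths; without yolk sac replicate 1 it was 4.5, and without replicate 2 it was 10.5. The difference over the 44 other genes (-2.5) turned to 7 in the higher-scoring 50% and was -5 with equal list lengths, and leaving out each library gave -4.5 to -0.5. The causes were not tested. Of 54 single-gene checks (9 genes under 6 alternatives), 46 kept every call, 8 changed a call in at least 1 library and none changed direction. With the replicate number as a block, the paired differences had the same means (-2.5, 2.5, 7.5 and -2.5), with exact sign-flip permutation p of 0.5, 1, 0.5 and 1, where 0.5 is the smallest possible. The deviations of same-numbered libraries were not correlated over 11805 genes (r = -0.011). With 2 libraries per tissue this cannot show whether same-numbered libraries share embryos. The main tests did not pair the samples. Depth is unknown, and a missing peak may reflect it.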
